A study of Mus musculus with 9 samples.

Results

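Interferons are secreted alarm signals that induce antiviral and antigen presentation genes in the cells they reach. Here 55 genes with symbols that match names of that response were followed in 3 mouse tumour lines in culture. The members were chosen by symbol alone. They are every row of the deposited count table whose symbol begins with or equals a set of names for interferon receptors, STAT and IRF factors, interferon-induced families, H2 (mouse MHC) genes and their loading factors, which gave 55 of 11046 genes. Irf2bp1, Irf2bp2, Irf2bpl and Isg20l2 match by name only and are kept in the counts. All 55 passed the filter on low counts, but it removed only 9 of the 11046 genes, so that passing it says little. Whether the deposited count table had already been cut on expression was not tested. Such a cut would leave out genes that are low in every line, and could keep a gene for its level in only some lines. The lines were 482N1, labelled lung non-small-cell carcinoma (NSCLC), B16F10-BrM, labelled BRAF mutant melanoma, and E0771-BrM, labelled triple negative breast cancer, where BrM stands for brain metastatic. Every line carried the genotype label WT and was untreated. The culture medium was DMEM for the lung and melanoma lines but RPMI 1640 with HEPES for the breast line, each with FBS and antibiotics, so that line and medium cannot be told apart wherever E0771-BrM is compared. Each line had 3 poly(A)-selected, stranded RNA-seq libraries, lettered A, B and C, and nothing in the labels says that these were separate cultures. The p-values therefore measure the spread between libraries, which may be technical.

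Type I interferons bind the receptor chains IFNAR1 and IFNAR2, and type II interferon binds IFNGR1 and IFNGR2. Receptor-bound Janus kinases phosphorylate STAT proteins. STAT2 and IRF9 act in a complex that binds the interferon-stimulated response element (ISRE), while pairs of activated STAT proteins bind the gamma-activated site (GAS). The induced genes include RNA and DNA sensors, direct antiviral effectors and the machinery that loads peptides onto MHC class I molecules for display to T cells. Tumour cells are known to keep some of these genes on without added interferon, and others to have low MHC class I.

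Total counts lay between 7332390 and 9293348 per library. Of the marker lists, the 5 measured melanocyte genes summed to between 24600 and 25500 CPM (counts of a gene relative to the TMM-scaled library total) in the B16F10-BrM libraries. Krt8 and Krt18, the keratins measured of the lung epithelium list, summed to between 7290 and 7910 CPM in 482N1. The 4 measured mammary markers, Krt8, Krt18, Gata3 and Erbb2, summed to between 178 and 215 CPM in E0771-BrM, nearly all of it Krt8, and to between 7310 and 7940 in 482N1, so that they do not single out the breast line. Libraries A and C of 482N1 and of E0771-BrM held more of the melanocyte enzyme Dct (142, 14 and 148 counts in libraries A, B and C of 482N1, and 353, 29 and 263 in E0771-BrM) than library B, against at least 140918 in each B16F10-BrM library. Member results that lose their call when 482N1 and E0771-BrM are each restricted to library B are marked where they are given. Of 14 leukocyte markers 2 were measured, Cd14 and Cd68. They summed to between 24.7 and 34.2 CPM in 482N1, 0.502 and 0.625 in B16F10-BrM, where Cd14 was at 0, and 21.9 and 27.3 in E0771-BrM. Between 482N1 and E0771-BrM they ran opposite ways, with Cd14 at 27.2 ± 3.78 against 9 ± 0.801 CPM and Cd68 at 2.51 ± 0.981 against 15.8 ± 2. Their part in the results was not tested. In bulk RNA, fewer cells that express a gene and less RNA per cell cannot be told apart.

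The members were most often highest in the breast cancer line. By the rule that both pairwise comparisons pass (quasi-likelihood F test of edgeR, p adjusted over all genes by Benjamini-Hochberg, threshold 0.05), 33 of the 55 were highest in E0771-BrM, 11 in 482N1 and 3 in B16F10-BrM. Of the 11037 genes tested, 20.7%, 26.3% and 21% met the same rules. Both the counts and the shares hold only for genes with a row in the deposited count table. Whether members had a row there because of their level in E0771-BrM was not tested. Members lowest in a line by the same rule numbered 23 for B16F10-BrM, 15 for 482N1 and 8 for E0771-BrM, where the shares of all genes were 22.5%, 24.2% and 21.1%. Restricted to library B in 482N1 and E0771-BrM, 29 members were highest in E0771-BrM, and 29 to 34 over all alternatives that tested against no change. Some difference between the 3 lines was called for 54 members by the joint F test, against 92.1% of all genes. The member with no call was Isg20l2, a nuclease of ribosome assembly.

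Between E0771-BrM and B16F10-BrM, 42 members were higher in E0771-BrM and 10 lower, with a median log2 fold change of 2.10. Of all genes 37.2% were higher and 36.5% lower, with a median of 0.0179. Between E0771-BrM and 482N1, 34 were higher and 15 lower in E0771-BrM (median 1.18), while 37.7% of all genes were higher and 40.4% lower (median -0.044). Between B16F10-BrM and 482N1, 18 were higher in B16F10-BrM and 28 lower (median -0.47), while 38% of all genes were higher and 39.9% lower (median -0.0361). The medians were the same with genes at 0 in a line set to their bound. Of the 55 members, 18 were called higher in E0771-BrM than in B16F10-BrM by 8-fold or more in the fit, and 0 lower. Of all 11037 genes, 563 were higher and 489 lower by that much. These 3 comparisons share libraries and are not independent of each other.

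**Figure D1:**
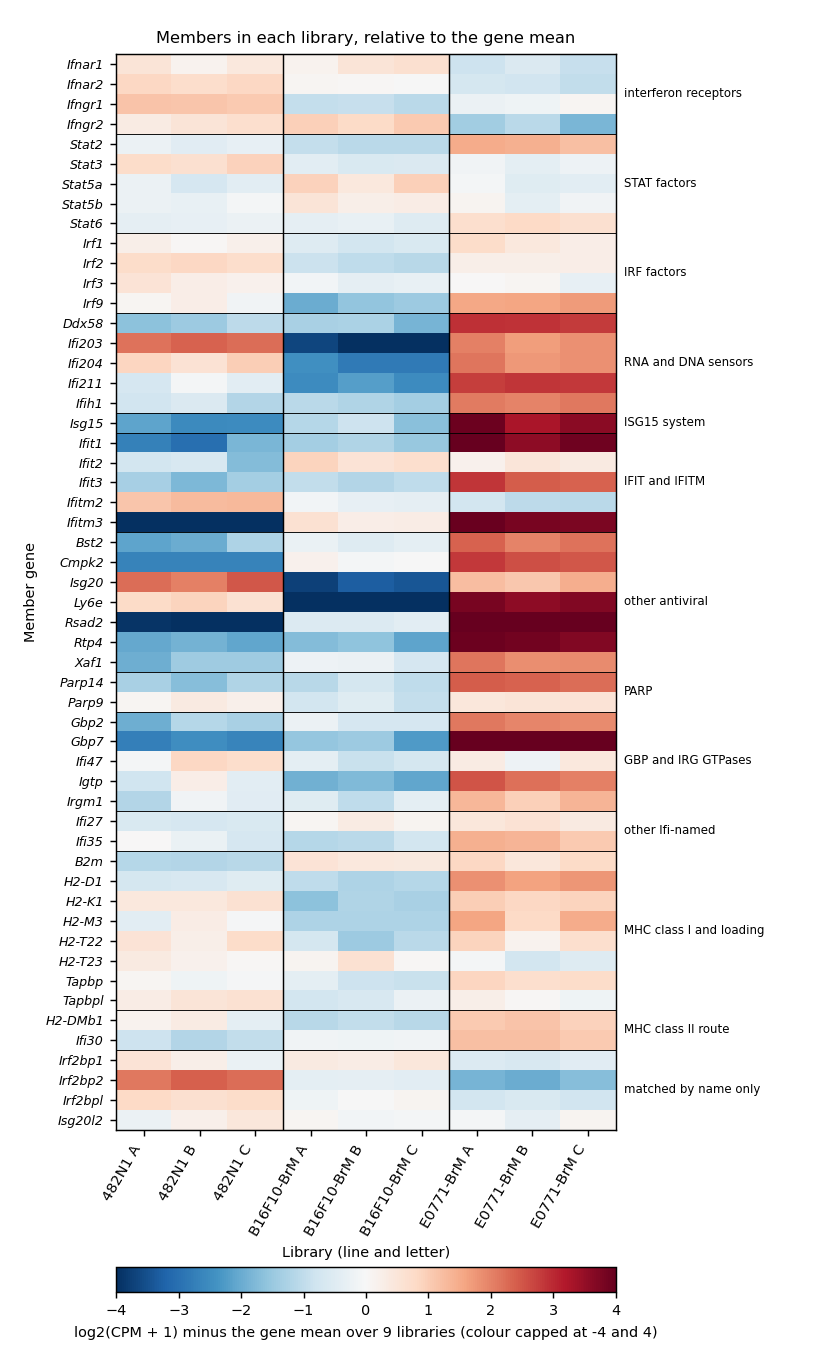
Each row is a member gene and each column a library. Colour gives log2(CPM + 1) minus the mean of that gene over the 9 libraries, with members grouped by role. The 3 E0771-BrM columns are red for the sensors, ISG15, Ifit1, Ifit3, Ifitm3 and most other effectors, and blue for the receptors Ifnar1, Ifnar2 and Ifngr2.

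**Figure D2:**
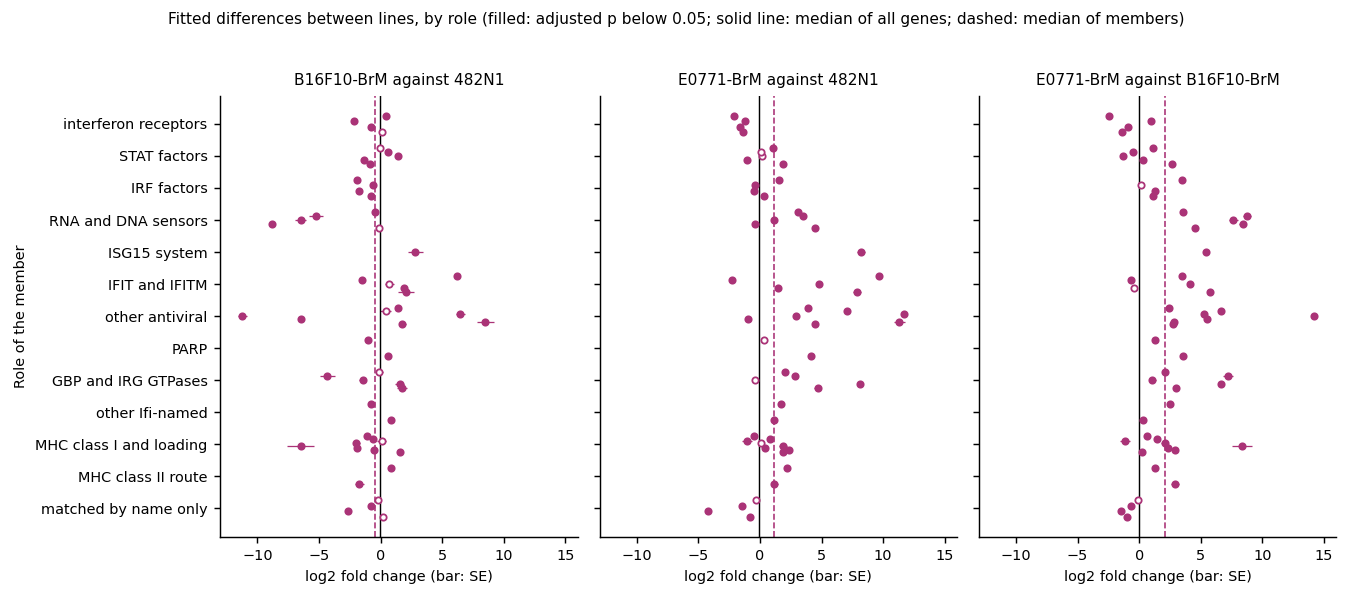
Fitted log2 fold changes (x axis, bars show SE) of 54 members by role, for the 3 pairs of lines. Filled points passed an adjusted p of 0.05. The dashed line marks the median of all 55 members, -0.47, 1.18 and 2.10 from left to right, and the solid line the median of all genes. Points of genes at 0 in a line depend on the fit's prior count.

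Promoters are shown for 7 genes to which the results return, since the share of members with an interferon motif there was above that of promoters at large. RefSeq promoter windows (build GRCm38.p6, 250 bases before to 50 after each annotated start) were at hand for 47 of the 55 members, and those without one include Ifi204, Ifi27, Ly6e, Parp14, Parp9, Rtp4 and Tapbpl. The ISRE core was searched as GAAA, any 2 bases and GAAA again, on both strands, overlaps included. It was present in a window of 20 of the 47 members (42.6%), against 3.54% of the 8583 genes of the count table with a window and 3.44% of all 32851 windows. The palindromic GAS, TTCNNNGAA, was in 13 members (27.7%), against 8.11% of those genes and 8.3% of all windows. The windows below run 5′ to 3′ on the strand of the gene, in lower case, with ISRE core matches in capitals.
Isg15 (chr4:156200769-156201068, minus strand): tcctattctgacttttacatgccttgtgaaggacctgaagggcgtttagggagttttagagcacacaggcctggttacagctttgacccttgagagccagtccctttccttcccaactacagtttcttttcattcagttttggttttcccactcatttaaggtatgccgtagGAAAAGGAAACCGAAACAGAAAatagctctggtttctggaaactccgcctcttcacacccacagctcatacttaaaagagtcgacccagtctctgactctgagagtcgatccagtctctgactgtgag
Ifit1 (chr19:34640639-34640938, plus strand): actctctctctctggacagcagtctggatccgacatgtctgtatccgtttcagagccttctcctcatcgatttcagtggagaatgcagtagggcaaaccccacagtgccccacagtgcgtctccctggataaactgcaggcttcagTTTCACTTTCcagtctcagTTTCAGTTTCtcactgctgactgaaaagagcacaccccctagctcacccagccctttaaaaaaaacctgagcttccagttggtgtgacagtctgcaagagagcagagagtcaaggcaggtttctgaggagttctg
Rsad2 (chr12:26456403-26456702, minus strand): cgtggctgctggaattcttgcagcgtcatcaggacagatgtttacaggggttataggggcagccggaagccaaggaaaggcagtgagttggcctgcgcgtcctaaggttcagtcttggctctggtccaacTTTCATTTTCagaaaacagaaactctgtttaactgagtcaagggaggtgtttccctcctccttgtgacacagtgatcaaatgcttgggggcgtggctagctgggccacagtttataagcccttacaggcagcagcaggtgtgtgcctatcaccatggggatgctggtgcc
Ifitm3 (chr7:141010695-141010994, minus strand): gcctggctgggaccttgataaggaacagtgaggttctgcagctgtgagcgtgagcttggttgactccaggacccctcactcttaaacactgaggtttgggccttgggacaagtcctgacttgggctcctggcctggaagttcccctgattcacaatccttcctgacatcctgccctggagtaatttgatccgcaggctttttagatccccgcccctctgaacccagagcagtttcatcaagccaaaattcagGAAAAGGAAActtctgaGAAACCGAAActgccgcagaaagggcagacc
Ifitm2 (chr7:140955912-140956211, minus strand): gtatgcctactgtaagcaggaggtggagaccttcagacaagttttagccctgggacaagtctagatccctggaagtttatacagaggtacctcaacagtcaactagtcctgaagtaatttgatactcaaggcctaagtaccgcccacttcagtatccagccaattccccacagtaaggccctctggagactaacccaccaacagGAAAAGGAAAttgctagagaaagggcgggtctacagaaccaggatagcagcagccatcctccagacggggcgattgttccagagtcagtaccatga
B2m (chr2:122147437-122147736, plus strand): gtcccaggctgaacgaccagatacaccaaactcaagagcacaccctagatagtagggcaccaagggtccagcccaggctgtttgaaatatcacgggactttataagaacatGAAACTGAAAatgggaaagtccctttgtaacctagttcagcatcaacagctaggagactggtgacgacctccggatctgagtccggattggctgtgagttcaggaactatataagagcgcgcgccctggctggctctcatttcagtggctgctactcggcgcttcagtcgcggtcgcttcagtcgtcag
H2-K1 (chr17:34000298-34000597, minus strand): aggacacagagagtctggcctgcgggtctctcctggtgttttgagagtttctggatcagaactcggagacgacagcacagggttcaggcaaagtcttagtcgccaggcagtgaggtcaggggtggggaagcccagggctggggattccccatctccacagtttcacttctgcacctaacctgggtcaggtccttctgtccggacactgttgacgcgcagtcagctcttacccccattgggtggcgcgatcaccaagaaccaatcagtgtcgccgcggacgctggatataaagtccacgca

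Isg15 held 3 overlapping matches in 1 unbroken run, and Bst2, Ifit1, Ifit3, Ifitm3 and Irgm1 held 2 each. In Ifitm3 both matches lie just downstream of the annotated start, and in Ifitm2, its neighbour, the single match lies upstream. The window of H2-K1 had no match to these letters, which says nothing of the factors that bind there. Of the 20 members with a match, 15 were highest in E0771-BrM, and Ifi203, Ifitm2, Irf2, H2-T22 and H2-T23 were not. Of the 27 members with a window and no match, 12 were highest in E0771-BrM. Of all genes tested, 20.7% were highest in that line. The share among all genes with a match was not computed, and a link between motif and level was not tested. Both motifs were found in Bst2, Gbp7, Ifitm3, Igtp and Irf2. A match is a run of letters and not a measured binding site.

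**Figure D3:**
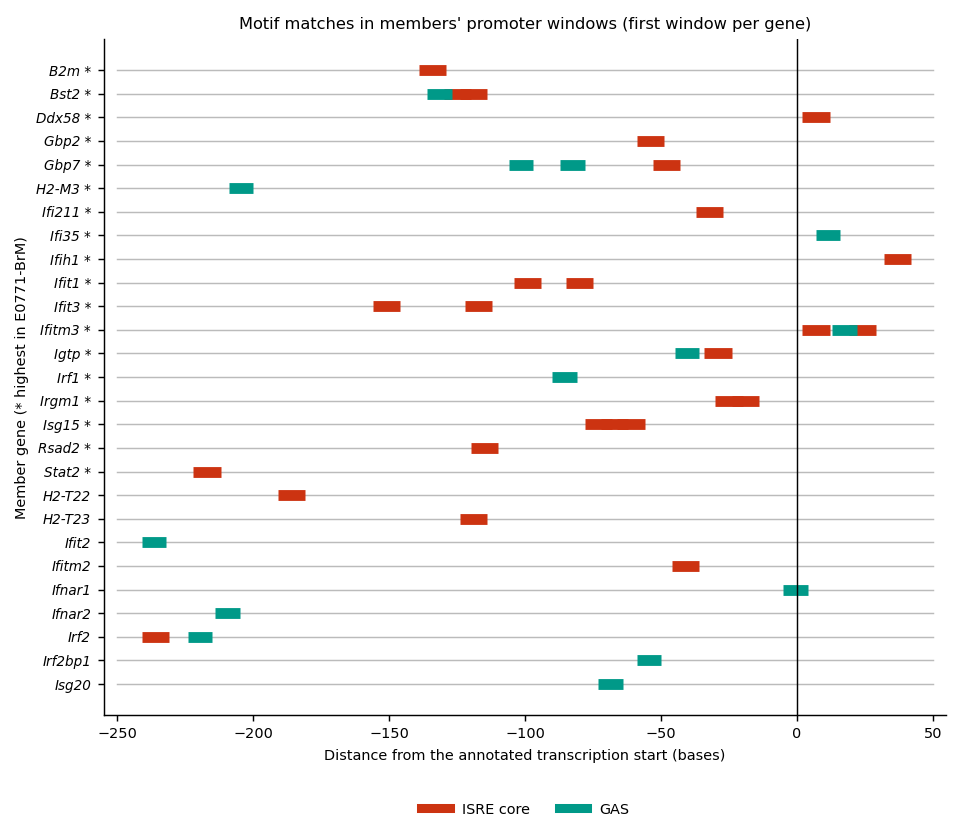
Positions of ISRE core (red) and GAS (green) matches relative to the annotated transcription start, in bases, for the 27 members with a match in their first RefSeq window. Asterisks mark the 18 of them that were highest in E0771-BrM, against 20.7% of all genes. Matches lie upstream of the start in Isg15 and Ifitm2 and downstream of it in Ifitm3.

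Of the 4 receptor genes, Ifnar1, Ifnar2 and Ifngr2 were lowest in E0771-BrM, the line in which most members were highest. By the same rule, 21.1% of all genes were lowest in E0771-BrM. Ifnar1, the signalling chain of the type I receptor, had 9.54, 7.1 and 8.87 CPM in 482N1, 7.08, 9.66 and 10.5 in B16F10-BrM and 3.17, 3.96 and 2.87 in E0771-BrM, in the order of libraries A, B and C that is kept below. The E0771-BrM libraries lay under all others. The log2 fold change was -1.34 ± 0.24 against 482N1 (adjusted p = 1.86e-06) and -1.43 ± 0.23 against B16F10-BrM (adjusted p = 4.23e-07), and 482N1 and B16F10-BrM were not called apart (adjusted p = 0.693). With only library B of 482N1 and E0771-BrM, the first of these had an adjusted p of 0.0551 (range over the alternatives that tested against no change, 1.24e-06 to 0.0551).

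Ifnar2, the high-affinity chain, had 60.5, 54.5 and 59.5 CPM in 482N1, 34.9, 34.4 and 33.2 in B16F10-BrM and 20.1, 19.3 and 16.5 in E0771-BrM. Its 3 lines did not overlap, and E0771-BrM was 3.12-fold below 482N1 (log2 fold change -1.64 ± 0.11, adjusted p = 4.24e-18). Ifngr2, the signalling chain of the type II receptor, had 23.5, 26.7 and 29.9 CPM in 482N1, 36, 32 and 38.8 in B16F10-BrM and 6.34, 8.16 and 4.49 in E0771-BrM. Here B16F10-BrM was highest, and E0771-BrM was 5.62-fold below it (log2 fold change -2.49 ± 0.16, adjusted p = 4.6e-19). Ifngr1, the ligand-binding chain of the type II receptor, had another order, with 58.7, 57.4 and 54.1 CPM in 482N1, 13, 13.3 and 11.7 in B16F10-BrM and 22.1, 22.8 and 27.2 in E0771-BrM. It was highest in 482N1 and lowest in B16F10-BrM, which was 4.48-fold below 482N1 (log2 fold change -2.16 ± 0.12, adjusted p = 1.95e-21).

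**Figure D4:**
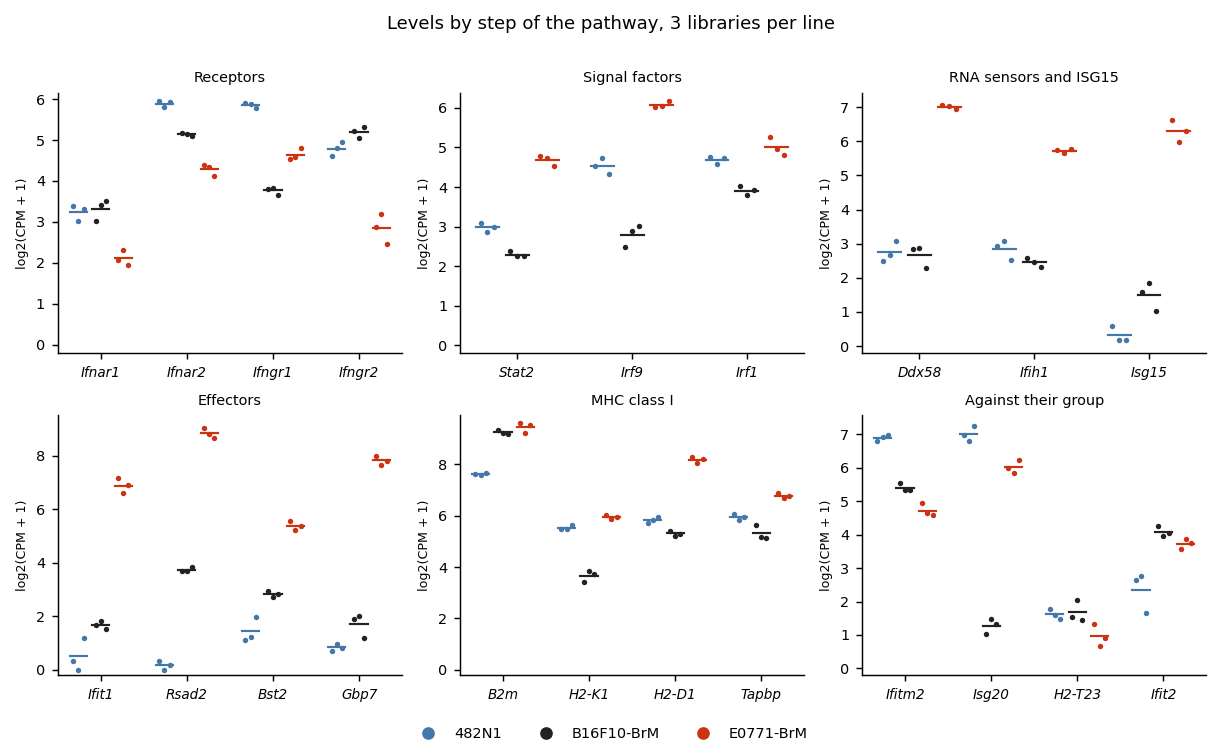
Points give log2(CPM + 1) of each library and bars the mean of the 3 libraries of a line, for members at successive steps of the pathway. E0771-BrM (red) is lowest for Ifnar1, Ifnar2 and Ifngr2 and highest for Stat2, Irf9, the sensors and the effectors. The last panel holds members chosen after their values were seen because they depart from their group.

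Stat2 and Irf9, partners in the complex that binds the ISRE, were highest in E0771-BrM and lowest in B16F10-BrM. Stat2 had 7.48, 6.26 and 6.97 CPM in 482N1, 4.17, 3.76 and 3.73 in B16F10-BrM and 26.8, 25.4 and 22.1 in E0771-BrM. No lines overlapped, and B16F10-BrM was 6.37-fold below E0771-BrM (log2 fold change of E0771-BrM against it 2.66 ± 0.18, adjusted p = 3.58e-18) and 1.78-fold below 482N1 (-0.82 ± 0.21 for B16F10-BrM against 482N1, adjusted p = 0.000533). Irf9, the DNA-binding part of the complex, had 22.2, 25.5 and 19 CPM in 482N1, 4.58, 6.4 and 7.11 in B16F10-BrM and 64.2, 65 and 71.3 in E0771-BrM. Its lines did not overlap either, with B16F10-BrM 11.1-fold below E0771-BrM (log2 fold change of E0771-BrM against it 3.48 ± 0.14, adjusted p = 9.32e-27) and 3.69-fold below 482N1 (-1.89 ± 0.16 for B16F10-BrM against 482N1, adjusted p = 2.93e-15).

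STAT genes that serve other cytokines were not all highest in E0771-BrM. Stat3, the factor of interleukin-6 type cytokines, was highest in 482N1, with 69.7, 64.9 and 79.5 CPM in 482N1, 30.4, 26.6 and 27.6 in B16F10-BrM and 37.4, 31.6 and 36 in E0771-BrM. E0771-BrM was 2.04-fold below 482N1 (log2 fold change -1.03 ± 0.10, adjusted p = 2.62e-12). Its small excess over B16F10-BrM (0.31 ± 0.11, adjusted p = 0.0126) was lost without library B of B16F10-BrM (0.0524), without library A of E0771-BrM (0.0656) and in the fit restricted to library B of both other lines (0.369; range over the alternatives 0.00556 to 0.369). Stat5a and Stat5b, used by prolactin and growth hormone receptors, were highest in B16F10-BrM, at 9.73 ± 2.02 and 20.2 ± 2.06 CPM (mean ± SD, n = 3). The same genes had 3.61 ± 0.686 and 13.3 ± 1.12 CPM in 482N1, and 4.01 ± 0.812 and 14.2 ± 2.5 in E0771-BrM, and these latter lines were not called apart. Stat6, the factor of interleukins 4 and 13, was highest in E0771-BrM, 2.16-fold above B16F10-BrM (log2 fold change 1.11 ± 0.10, adjusted p = 1.24e-13), and the other lines were not called apart.

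Of the 4 IRF factors, Irf9 and Irf1 were highest in E0771-BrM and Irf2 and Irf3 in 482N1. The shares of all genes were 20.7% and 26.3%. Irf1, an activator that interferon induces, had 26.2, 22.8 and 25.6 CPM in 482N1, 15.2, 12.8 and 14.1 in B16F10-BrM and 37.3, 29.99 and 26.9 in E0771-BrM. It was 2.24-fold higher in E0771-BrM than in B16F10-BrM (log2 fold change 1.16 ± 0.14, adjusted p = 1.33e-10). The excess over 482N1 was small (0.34 ± 0.13, adjusted p = 0.0148) and was lost without library B of 482N1 (0.0706), without library A of E0771-BrM (0.198) and in the fit restricted to library B of each (0.107; range over the alternatives 0.00442 to 0.198). Irf2, which competes with IRF1 for the same sites, had 106, 115 and 106 CPM in 482N1, 34.8, 31.1 and 29.2 in B16F10-BrM and 75.2, 76 and 77.3 in E0771-BrM. All 3 lines were apart, with B16F10-BrM 3.44-fold below 482N1 (log2 fold change -1.78 ± 0.092, adjusted p = 8e-23). Irf3, which RNA and DNA sensors activate, had 24.1 ± 3.57 CPM in 482N1, 15.7 ± 1.58 in B16F10-BrM and 17.8 ± 2.8 CPM in E0771-BrM. Its difference between E0771-BrM and 482N1 (-0.43 ± 0.14, adjusted p = 0.00572) was lost without library A of 482N1 (0.073), without library C of E0771-BrM (0.0685) and in the fit restricted to library B of each (0.463; range over the alternatives 0.00285 to 0.463).

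Both cytosolic RNA sensors were high in E0771-BrM and low in the other lines. Ddx58, which encodes RIG-I, had 4.64, 5.42 and 7.48 CPM in 482N1, 6.15, 6.4 and 3.85 in B16F10-BrM and 133, 129.5 and 122 in E0771-BrM. E0771-BrM was 21.9-fold above 482N1 (log2 fold change 4.45 ± 0.14, adjusted p = 3.19e-31) and 23.5-fold above B16F10-BrM (4.55 ± 0.14, adjusted p = 1.13e-31), while those lines overlapped. Ifih1, which encodes the long-RNA sensor MDA5, had 6.58, 7.46 and 4.69 CPM in 482N1, 5, 4.52 and 3.96 in B16F10-BrM and 52.7, 49.8 and 53.7 in E0771-BrM. E0771-BrM was 8.34-fold above 482N1 (log2 fold change 3.05 ± 0.15, adjusted p = 8.33e-24). Its difference between B16F10-BrM and 482N1 (-0.47 ± 0.20, adjusted p = 0.0309) was lost in 7 of 19 alternatives that tested against no change, among them those without library A (0.0743) or B (0.197) of 482N1 and without library B (0.0536) or C (0.11) of B16F10-BrM (range over these alternatives 0.00579 to 0.197).

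The Ifi200 genes, a mouse cluster whose products bind DNA and which includes the DNA sensor Ifi204, split off B16F10-BrM in another way. Ifi203 had 87.8, 98.8 and 90.5 CPM in 482N1, 0.521, 0 and 0 in B16F10-BrM and 77.8, 60.8 and 69 in E0771-BrM. The 3 B16F10-BrM libraries A, B and C held 5, 0 and 0 counts of it, while the mean of E0771-BrM was 1.33-fold below that of 482N1, with no overlap (log2 fold change -0.42 ± 0.11 for E0771-BrM against 482N1, adjusted p = 0.000591). Ifi204 had 12.1, 9.63 and 13.3 CPM in 482N1, 30.7, 22.7 and 24.2 in E0771-BrM, and 3, 0 and 0 counts in libraries A, B and C of B16F10-BrM, a ratio of E0771-BrM to B16F10-BrM of 225 (95% counting interval 76.6 to 1090). The fitted log2 fold change of 7.64 rested on library A of B16F10-BrM and was 10.71 without it. Ifi211 had 2.58, 4.45 and 3.3 CPM in 482N1, 38.6, 40.4 and 39.5 in E0771-BrM and 0, 2 and 0 counts in B16F10-BrM, a ratio of 517 (143 to 4270). Its fitted value of 8.75 was 11.36 without library B of B16F10-BrM. Near absence in B16F10-BrM was common to all 3 genes. The difference between E0771-BrM and 482N1 ran from -0.42 for Ifi203 to 1.15 for Ifi204 and 3.51 for Ifi211 on the log2 scale. Counting intervals and floors cover counting error only.

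Isg15 encodes a ubiquitin-like protein that is attached to other proteins after interferon exposure, and its promoter carries the 3 overlapping ISRE core matches shown above. It had 0.516, 0.12 and 0.127 CPM in 482N1, 1.98, 2.63 and 1.05 in B16F10-BrM and 97.6, 61.8 and 77.7 in E0771-BrM. The lines did not overlap, and E0771-BrM was 41.9-fold above B16F10-BrM (log2 fold change 5.38 ± 0.21, adjusted p = 9.15e-19). B16F10-BrM was in turn above 482N1 (2.83 ± 0.61, adjusted p = 0.000167), where the libraries held 4, 1 and 1 counts. That log2 fold change was 3.77 without library A of 482N1 (range over the alternatives 2.50 to 3.81), and for E0771-BrM against 482N1 it went from 8.21 to 9.16.

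The IFIT genes, whose products bind foreign RNA and block its translation, did not move as a family. Ifit1 had 0.258, 0 and 1.27 CPM in 482N1, 2.19, 2.51 and 1.86 in B16F10-BrM and 142, 95.5 and 119 in E0771-BrM. E0771-BrM was 54.4-fold above B16F10-BrM (log2 fold change 5.76 ± 0.26, adjusted p = 1.96e-11), and B16F10-BrM was above 482N1 (2.09 ± 0.65, adjusted p = 0.00961). The latter call was lost without library A of 482N1 (0.0652; range over the alternatives 1.98e-06 to 0.0652), and its log2 fold change was 1.49 without library B of 482N1 and 3.98 without library C, which took E0771-BrM against 482N1 from 7.85 to 9.73. Restricted to library B, which held no count of Ifit1, the fitted log2 fold change was 7.23 (12.68 for E0771-BrM against 482N1). Ifit3 had 1.55, 0.843 and 1.52 CPM in 482N1, 2.29, 1.88 and 2.21 in B16F10-BrM and 46.2, 33.8 and 31.9 in E0771-BrM. Again E0771-BrM stood apart, 17.5-fold above B16F10-BrM (log2 fold change 4.11 ± 0.20, adjusted p = 1.69e-23). B16F10-BrM and 482N1 were not called apart for Ifit3 (adjusted p = 0.0571), but were without library A of 482N1 (0.0493; range 0.0266 to 0.247).

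Ifit2 departed from the others, with 5.29, 5.78 and 2.15 CPM in 482N1, 18.3, 14.4 and 15.6 in B16F10-BrM and 10.8, 13.7 and 12.6 in E0771-BrM. It was lowest in 482N1, 3.66-fold below B16F10-BrM (log2 fold change of B16F10-BrM against it 1.87 ± 0.21, adjusted p = 1.83e-10). B16F10-BrM lay above E0771-BrM in every library, a difference that did not pass (-0.39 ± 0.18 for E0771-BrM against B16F10-BrM, adjusted p = 0.057). It passed in 7 of 19 alternatives, among them those without library B of 482N1 (0.0446), library C of 482N1 (0.0277), library B of B16F10-BrM (0.0423) or library B of E0771-BrM (0.0481), with a range of 0.0167 to 0.339 over all 19.

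The IFITM genes, which encode membrane proteins that block virus fusion, had opposite orders. Ifitm3 had 0.645, 0.361 and 0.38 CPM in 482N1, 40.6, 31.5 and 32.7 in B16F10-BrM and 424, 375 and 368 in E0771-BrM. Each line was apart from the next, with E0771-BrM 11.1-fold above B16F10-BrM (log2 fold change 3.47 ± 0.092, adjusted p = 1.18e-34) and B16F10-BrM 75.6-fold above 482N1 (6.21 ± 0.22, adjusted p = 1.28e-29). Ifitm2 had 110.4, 121 and 126 CPM in 482N1, 45.9, 39.5 and 39 in B16F10-BrM and 29.6, 23.9 and 23.1 in E0771-BrM. The order was reversed and no lines overlapped, with E0771-BrM 4.67-fold below 482N1 (log2 fold change -2.22 ± 0.10, adjusted p = 1.06e-24) and 1.63-fold below B16F10-BrM (-0.71 ± 0.11, adjusted p = 1.2e-07). Both genes held an ISRE core match in the windows shown above. How the authors' counting split reads between such related genes is not given in the sources used here. The same holds for the Ifi200, GBP, H2 and Stat5 genes, whose values are uncertain to that extent.

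Of 7 further members grouped here as antiviral or interferon-induced, 6 were highest in E0771-BrM, against 20.7% of all genes. The gene of viperin, Rsad2, whose enzyme makes a chain terminator of viral RNA synthesis, had 0.258, 0 and 0.127 CPM in 482N1, 12, 12 and 13.2 in B16F10-BrM and 533, 455 and 411 in E0771-BrM. The 3 lines were far apart. E0771-BrM was 37.6-fold above B16F10-BrM (log2 fold change 5.23 ± 0.11, adjusted p = 3.12e-37), and 482N1 held 3 counts in all, a ratio of 3720 between E0771-BrM and 482N1 (95% counting interval 1270 to 18000). Library A of 482N1 held 2 of these counts, and without it the fitted log2 fold change went from 11.70 to 12.57. Cmpk2, a mitochondrial nucleotide kinase gene that adjoins Rsad2, had no count in 482N1, 6.15, 5.02 and 5.24 CPM in B16F10-BrM and 43.9, 36.5 and 34.5 in E0771-BrM. Its level was at least 44-fold higher in B16F10-BrM, and in E0771-BrM at least 305-fold higher, than in 482N1, taking 3 counts over the 482N1 libraries as the floor.

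Bst2, which encodes the virus tether tetherin, had 1.16, 1.32 and 2.92 CPM in 482N1, 6.67, 5.52 and 6.06 in B16F10-BrM and 46.3, 36 and 40.6 in E0771-BrM. It followed the same order, E0771-BrM 6.74-fold above B16F10-BrM (log2 fold change 2.74 ± 0.17, adjusted p = 5.2e-20) and B16F10-BrM 3.38-fold above 482N1 (1.76 ± 0.27, adjusted p = 7.68e-08). Xaf1, a partner of the apoptosis inhibitor XIAP, did as well, at 3.33 ± 0.869 CPM in 482N1, 9.04 ± 1.68 in B16F10-BrM and 49.5 ± 5.8 CPM in E0771-BrM. Rtp4, an interferon-induced regulator, was 101-fold higher in E0771-BrM than in B16F10-BrM (log2 fold change 6.64 ± 0.18, adjusted p = 3.75e-34), with 0.645, 0.843 and 0.634 CPM in 482N1, 1.04, 1.25 and 0.583 in B16F10-BrM and 104, 98.4 and 88.5 in E0771-BrM. B16F10-BrM and 482N1 were not called apart (adjusted p = 0.378).

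Ly6e and Isg20 differed from these in B16F10-BrM. Ly6e, which encodes a membrane-anchored protein that restricts coronaviruses, had no count in any B16F10-BrM library, 36.5, 39.96 and 32.5 CPM in 482N1 and 304, 263 and 285 in E0771-BrM. Its level was at least 2470-fold that of B16F10-BrM in E0771-BrM, and at least 317-fold in 482N1. E0771-BrM was 7.82-fold above 482N1 (log2 fold change 2.96 ± 0.091, adjusted p = 5.67e-31). Isg20, an RNA exonuclease gene, was the gene of this group highest in 482N1. It had 126, 109.6 and 150.2 CPM in 482N1, 1.04, 1.76 and 1.51 in B16F10-BrM and 62.4, 56.4 and 74.1 in E0771-BrM. B16F10-BrM was 89.6-fold below 482N1 (log2 fold change -6.49 ± 0.18, adjusted p = 1.77e-29), and E0771-BrM 2-fold below it (adjusted p = 3.35e-11).

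Guanylate-binding proteins and immunity-related GTPases attack the vacuoles of intracellular parasites and are classic targets of type II interferon. Of 5 members, 4 were highest in E0771-BrM, against 20.7% of all genes. Gbp7 had 0.645, 0.963 and 0.76 CPM in 482N1, 2.71, 3.01 and 1.28 in B16F10-BrM and 257, 203 and 221 in E0771-BrM. E0771-BrM was 97.3-fold above B16F10-BrM (log2 fold change 6.60 ± 0.15, adjusted p = 2.2e-35), and the other lines were low though apart (1.54 ± 0.37 for B16F10-BrM against 482N1, adjusted p = 0.000249). Gbp2 had the same order at lower levels, 0.617 ± 0.435 CPM in 482N1, 2.07 ± 0.552 in B16F10-BrM and 16.4 ± 1.38 CPM in E0771-BrM. The difference of Gbp2 between B16F10-BrM and 482N1 (adjusted p = 0.000366) was lost with only library B of 482N1 (0.0752; range over the alternatives 0.000221 to 0.0752).

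Igtp had 1.42, 4.09 and 2.15 CPM in 482N1, 1, 2 and 0 counts in libraries A, B and C of B16F10-BrM and 23, 18.4 and 16 CPM in E0771-BrM, a ratio of E0771-BrM to B16F10-BrM of 166 (95% counting interval 56.5 to 809). The fitted log2 fold change of 7.20 was 8.09 without library B of B16F10-BrM. Irgm1, a regulator of the other GTPases, had 1.68, 4.45 and 3.42 CPM in 482N1, 3.33, 2.01 and 3.61 in B16F10-BrM and 14, 10.7 and 14.3 in E0771-BrM. It was 4.35-fold higher in E0771-BrM than in B16F10-BrM (log2 fold change 2.10 ± 0.25, adjusted p = 2.31e-10), and 482N1 and B16F10-BrM overlapped. Ifi47 was the exception, with 4.26, 8.91 and 8.11 CPM in 482N1, 3.23, 2.01 and 2.45 in B16F10-BrM and 6.09, 3.84 and 6.48 in E0771-BrM. It was lowest in B16F10-BrM, and E0771-BrM and 482N1 were not called apart (log2 fold change -0.38 ± 0.25, adjusted p = 0.164), but were without library A of 482N1 (0.021, log2 fold change -0.64; range over the alternatives 0.00996 to 0.567). With only library B of 482N1 and E0771-BrM, the excess of Ifi47 in E0771-BrM over B16F10-BrM was lost (adjusted p = 0.21, against 0.0011 with all libraries; range 0.000231 to 0.21). In 482N1, library A was lowest for Igtp, Irgm1 and Ifi47 alike, and the spread of Igtp there was the widest of the members with at least 30 counts, a coefficient of variation of 54%.

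The ADP-ribosyltransferase genes Parp14 and Parp9, which lie near each other on chromosome 16, differed in range. Parp14 had 2.71, 1.8 and 2.92 CPM in 482N1, 3.23, 4.52 and 3.5 in B16F10-BrM and 47.6, 45.2 and 41.8 in E0771-BrM. E0771-BrM was 12-fold above B16F10-BrM (log2 fold change 3.59 ± 0.17, adjusted p = 1.8e-24). The call between B16F10-BrM and 482N1 (0.59 ± 0.26, adjusted p = 0.0335) was lost in 4 of 19 alternatives, among them those without library B of 482N1 (0.185) or of B16F10-BrM (0.153; range 0.0194 to 0.185). Parp9 spanned only 2.47-fold between E0771-BrM and B16F10-BrM, with 16, 19.7 and 17.4 CPM in 482N1, 8.75, 10.5 and 7.34 in B16F10-BrM and 21.2, 22.1 and 22.4 in E0771-BrM. Its difference between E0771-BrM and 482N1 did not pass (adjusted p = 0.0507), but did in 8 of 19 alternatives, among them those without library B of 482N1 (0.0282) or library B (0.0476) or C (0.043) of B16F10-BrM, with a range of 0.0282 to 0.587 over all 19. Of the other Ifi-named genes, Ifi35, an interferon-induced leucine zipper gene, was 5.65-fold higher in E0771-BrM than in B16F10-BrM (log2 fold change 2.50 ± 0.19, adjusted p = 1.13e-16). Ifi27, which encodes a small membrane protein, was 2.16-fold higher in E0771-BrM than in 482N1 (1.11 ± 0.10, adjusted p = 2.27e-13). Its small excess over B16F10-BrM (0.29 ± 0.099, adjusted p = 0.00804) was lost without library A of B16F10-BrM (0.0526) or library B of E0771-BrM (0.0628; range 0.00266 to 0.0628).

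In MHC class I presentation, the light chain and the heavy chains differed in which line was low. B2m, the light chain of every class I molecule, was low in 482N1, with 197, 193 and 199.5 CPM in 482N1, 642, 585 and 576 in B16F10-BrM and 769, 598 and 734 in E0771-BrM. B16F10-BrM was 3.06-fold above 482N1 (log2 fold change 1.61 ± 0.078, adjusted p = 2.42e-23) and E0771-BrM 3.57-fold (1.83 ± 0.078, adjusted p = 2.67e-25). The excess of E0771-BrM over B16F10-BrM was small, and those libraries overlapped (0.22 ± 0.075, adjusted p = 0.0078). That call was lost without library A (0.103) or C (0.0509) of E0771-BrM, and with only library B of E0771-BrM the difference was -0.0084 (adjusted p = 0.944; range over the alternatives 0.000208 to 0.944).

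The classical heavy chain genes were instead lowest in B16F10-BrM. H2-K1 had 43.2, 43.2 and 48.9 CPM in 482N1, 9.69, 13.3 and 12.3 in B16F10-BrM and 64.2, 57.2 and 59.9 in E0771-BrM. B16F10-BrM was 3.83-fold below 482N1 (log2 fold change -1.95 ± 0.12, adjusted p = 2.73e-19) and 5.13-fold below E0771-BrM (2.37 ± 0.12 for E0771-BrM against B16F10-BrM, adjusted p = 9.13e-23). E0771-BrM was modestly above 482N1 (0.42 ± 0.10, adjusted p = 0.000369), a call lost in the fit restricted to library B of each (0.0516; range over the alternatives 0.000132 to 0.0516). H2-D1 had 52.1, 55.1 and 61.4 CPM in 482N1, 41.6, 36 and 38.2 in B16F10-BrM and 307, 264 and 291 in E0771-BrM. For H2-D1, E0771-BrM stood far above the other lines, 5.11-fold over 482N1 (log2 fold change 2.35 ± 0.085, adjusted p = 5.36e-29) and 7.45-fold over B16F10-BrM (2.89 ± 0.088, adjusted p = 4.59e-32). Between B16F10-BrM and 482N1 the difference in H2-D1 was smaller (-0.54 ± 0.093, adjusted p = 1.12e-06).

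The non-classical genes differed among themselves. H2-M3, whose product presents formylated bacterial and mitochondrial peptides, had no count in B16F10-BrM, 0.774, 1.93 and 1.27 CPM in 482N1 and 6.09, 3.12 and 5.61 in E0771-BrM. Compared with B16F10-BrM this was at least 42.8-fold higher for E0771-BrM and for 482N1 at least 11.6-fold higher. Its excess in E0771-BrM over 482N1 (1.87 ± 0.36, adjusted p = 9.33e-06) was lost in the fit restricted to library B of both lines (0.69, adjusted p = 0.347; range over the alternatives 1.84e-06 to 0.347). H2-T22, which gamma-delta T cells recognise, was lowest in B16F10-BrM, with 1.83 ± 0.741 CPM against 7.33 ± 1.37 in 482N1 and 7.84 ± 2.27 in E0771-BrM, which were not called apart. H2-T23 encodes Qa-1, the ligand of an inhibitory receptor of natural killer cells, and was the class I gene lowest in E0771-BrM, with 2.45, 2.05 and 1.77 CPM in 482N1, 1.88, 3.14 and 1.75 in B16F10-BrM and 1.52, 0.6 and 0.873 in E0771-BrM. This rested on 5 to 25 counts per library. Against 482N1 (log2 fold change -1.06 ± 0.43, adjusted p = 0.0217) the call was lost without library A of 482N1 (0.0739) or library B (0.113) or C (0.0618) of E0771-BrM and in the fit restricted to library B of both lines (0.0561; range 0.00782 to 0.113). Against B16F10-BrM (-1.16 ± 0.42, adjusted p = 0.0116) it was lost without library B of B16F10-BrM (0.0988) or of E0771-BrM (0.0742; range 0.00441 to 0.0988).

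Both loading factors were lowest in B16F10-BrM, like the classical heavy chains. Tapbp, which encodes tapasin, the bridge between class I molecules and the peptide transporter, had 66.4, 56.2 and 61.1 CPM in 482N1, 48.3, 35.2 and 33.9 in B16F10-BrM and 116, 101 and 106 in E0771-BrM. It was highest in E0771-BrM, with a 2.75-fold difference from B16F10-BrM (log2 fold change 1.46 ± 0.10, adjusted p = 2.01e-16). Tapbpl, a tapasin-related peptide editor, had 9.93, 11.8 and 12.7 CPM in 482N1, 4.38, 4.77 and 6.64 in B16F10-BrM and 9.52, 8.28 and 6.98 in E0771-BrM. It was highest in 482N1, but the call between E0771-BrM and 482N1 (-0.47 ± 0.20, adjusted p = 0.0251) was lost without library B (0.0584) or C (0.0951) of 482N1, without library C of E0771-BrM (0.121) and in the fit restricted to library B of both lines (0.172; range 0.0151 to 0.172). In all, 6 of the 8 class I genes were lowest in B16F10-BrM, B2m was lowest in 482N1 and H2-T23 in E0771-BrM. By the same rule, 22.5% of all genes were lowest in B16F10-BrM, 24.2% in 482N1 and 21.1% in E0771-BrM.

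Both members of the class II route were highest in E0771-BrM, against 20.7% of all genes. Ifi30, a lysosomal thiol reductase that prepares antigens for class II loading, had 33.8, 26.6 and 30.2 CPM in 482N1, 54.7, 53.6 and 54.9 in B16F10-BrM and 140.0, 139.9 and 125 in E0771-BrM. E0771-BrM was 2.48-fold above B16F10-BrM (log2 fold change 1.31 ± 0.089, adjusted p = 2.77e-18) and 4.47-fold above 482N1 (2.16 ± 0.095, adjusted p = 1.44e-25). H2-DMb1, a chain of the class II peptide editor, was low throughout, with 3.33 ± 1.06 CPM in 482N1, 1 ± 0.112 in B16F10-BrM and 7.58 ± 0.589 CPM in E0771-BrM. It was 7.59-fold higher in E0771-BrM than in B16F10-BrM (log2 fold change 2.91 ± 0.31, adjusted p = 1.36e-11). Classical class II chains, Tap1, Tap2, Nlrc5, Irf7, Usp18 and the Mx and Oas families had no row under these symbols in the count table. Their levels are therefore not known here.

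Of the 3 IRF2-binding protein genes and Isg20l2, which encodes a nucleolar exonuclease, none was highest in E0771-BrM. The share of all genes was 20.7%, so that 0 of 4 says little. The 3 IRF2-binding protein genes were lowest in E0771-BrM, against 21.1% of all genes. Irf2bp2, a corepressor partner of IRF2, had 223, 269 and 239 CPM in 482N1, 38.1, 39 and 37.3 in B16F10-BrM and 13.2, 11.9 and 15 in E0771-BrM. It was highest in 482N1 and 18.3-fold lower in E0771-BrM (log2 fold change -4.19 ± 0.10, adjusted p = 6.82e-36). Irf2bpl followed the same order, from 161 ± 8.99 CPM in 482N1 to 96 ± 9.66 in B16F10-BrM and 59.1 ± 3.85 CPM in E0771-BrM. Irf2bp1 was lowest in E0771-BrM, at 12.2 ± 0.854 CPM against 21.3 ± 6.13 in 482N1 and 24 ± 1.53 in B16F10-BrM. The latter lines were not called apart (adjusted p = 0.278), but were without library A of 482N1 (0.0225; range 0.0225 to 0.895). Isg20l2 had 9.21 ± 2.37, 7.84 ± 0.615 and 7.4 ± 1.37 CPM in 482N1, B16F10-BrM and E0771-BrM. It was called for E0771-BrM against 482N1 without library A of 482N1 (adjusted p = 0.0353, against 0.157 with all libraries; range 0.0353 to 0.595).

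Members that neighbour each other on a chromosome shared an order in some clusters and not in others. How often neighbouring genes of the whole count table share an order was not computed. By RefSeq gene order (an earlier build, used for order only), Rsad2 and Cmpk2 on chromosome 12 are adjacent, and both ran E0771-BrM above B16F10-BrM above 482N1. Ifnar2, Ifnar1 and Ifngr2 on chromosome 16 lie with 1 protein-coding gene or none between neighbours, and all were lowest in E0771-BrM. The adjacent Stat5b and Stat5a on chromosome 11 were both highest in B16F10-BrM, while Stat3 beside them was lowest there. Ifitm2 and Ifitm3 on chromosome 7 have 1 protein-coding gene between them and had opposite orders. Ifit2 and Ifit3 on chromosome 19 are adjacent, and Ifit3 was highest in E0771-BrM while Ifit2 was lowest in 482N1 with no line called highest. H2-T23 and H2-T22 on chromosome 17, also adjacent, were lowest in E0771-BrM and in B16F10-BrM, respectively. Gbp7 and Gbp2 on chromosome 3 have 2 protein-coding genes between them and shared an order. The adjacent Ifi211 and Ifi203 on chromosome 1 were both lowest in B16F10-BrM, but highest in E0771-BrM and in 482N1, respectively.

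**Figure D5:**
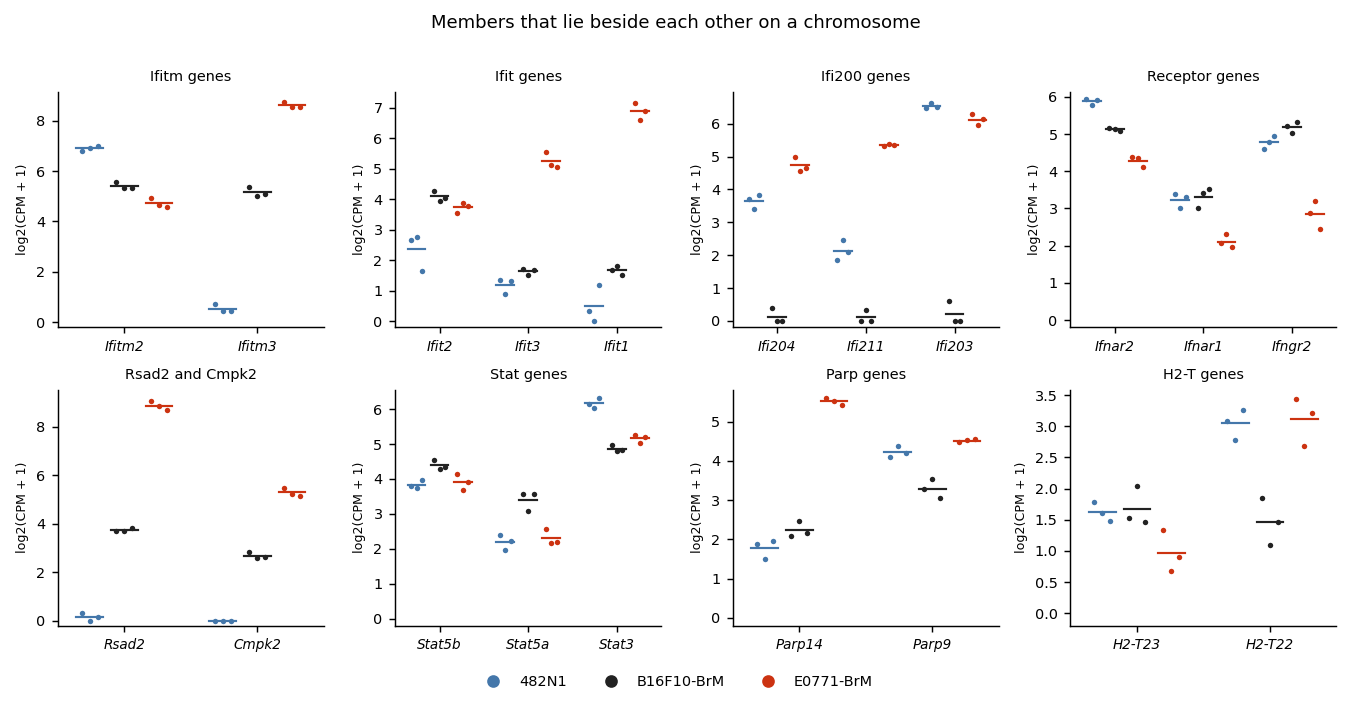
Points give log2(CPM + 1) of each library and bars the mean of the 3 libraries of a line, for members that lie adjacent or near on a chromosome. The 3 receptor genes are lowest in E0771-BrM, Rsad2 and Cmpk2 share an order of lines, and Ifitm2 and Ifitm3 have opposite orders.

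Within E0771-BrM, library A stood above libraries B and C for most of the members highest in that line. Of the 33 members highest in E0771-BrM, 26 had their highest CPM in library A, 4 in B and 3 in C. Over all 2281 genes highest in E0771-BrM, library A held the top value for 757 (33.2%). The ratio of library A to the mean of B and C had a median of 1.14 over the 33 members and 0.999 over the 2281 genes. Isg15 and Ifit1, with 97.6, 61.8 and 77.7 and 142, 95.5 and 119 CPM, show the pattern. Without library A, 31 members were highest in E0771-BrM, against 31 to 34 over the fits that each left out 1 library. Members varied somewhat more between libraries than other genes, with a median coefficient of variation of 14.6%, 11.6% and 11.8% in 482N1, B16F10-BrM and E0771-BrM. The median over all genes with at least 30 counts in a line was 9.9%, 8.9% and 8.97%. Members and all genes were not matched for count level, and its part in this difference was not tested.

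Other genes of the pathway, from lists that hold no member, also had most of the induced genes higher in E0771-BrM, while signalling genes differed both ways. Their counts can be read against all genes tested, of which 37.2% to 38% were higher and 36.5% to 40.4% lower in each of the 3 comparisons. Listed genes that were not measured have no known level here, and the counts leave them out. Of 62 further interferon-stimulated genes 40 were measured. Between E0771-BrM and B16F10-BrM, 28 of them were higher and 2 lower in E0771-BrM (median log2 fold change 1.21). Against 482N1, 30 were higher and 6 lower in E0771-BrM (median 0.907). B16F10-BrM and 482N1 differed both ways, with 15 higher and 19 lower in B16F10-BrM (median -0.274), counts near the shares over all genes. The largest differences between E0771-BrM and B16F10-BrM were in the ubiquitin ligase gene Trim30a, at 70.9 ± 5.62 against 1.29 ± 0.744 CPM, the chemokine gene Ccl5, at 143 ± 12.7 against 3.15 ± 1.84, and Apol9b, at 7.51 ± 1.37 against 0.157 ± 0.0814. Between B16F10-BrM and 482N1 the largest were in the chemokine gene Cxcl10, at 27.7 ± 2.83 against 0.252 ± 0.221 CPM, Parp12, at 7.93 ± 2.22 against 0.246 ± 0.241, and Slfn9, at 44.5 ± 2.45 against 4.01 ± 0.589. E0771-BrM had 33.5 ± 4.13, 53.1 ± 4.42 and 41.1 ± 2.2 CPM of these genes, and for Cxcl10 and Slfn9 it was not called apart from B16F10-BrM (adjusted p = 0.0528 and 0.343). None of 12 listed interferon genes was among the genes tested, so that their levels are not known here.

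Of 15 receptor kinase and feedback genes 14 were measured. Between E0771-BrM and 482N1, 5 were higher and 9 lower in E0771-BrM (median -0.595). Between B16F10-BrM and 482N1, 4 were higher in B16F10-BrM and 10 lower (median -0.624), and between E0771-BrM and B16F10-BrM 7 were higher and 4 lower in E0771-BrM (median 0.274). Socs2, a feedback inhibitor of STAT5 signalling, had 201 ± 8.29 CPM in 482N1, 4.84 ± 0.738 in B16F10-BrM and 0.495 ± 0.331 CPM in E0771-BrM. Socs1, the main brake on interferon receptors, was low throughout, with 8, 20 and 3 counts in the 482N1 libraries, 2, 0 and 0 in B16F10-BrM and 29, 26 and 16 in E0771-BrM. Cish, a STAT5-induced inhibitor of the same family, had no count in E0771-BrM, 1.28 ± 0.302 CPM in B16F10-BrM and 6.14 ± 0.99 in 482N1. Socs3, the brake on STAT3, had 50.03 ± 3.34, 3.05 ± 0.431 and 10.3 ± 3.29 CPM in 482N1, B16F10-BrM and E0771-BrM. Il10rb, a receptor chain shared by interleukin-10 and type III interferons, was lowest in E0771-BrM, at 3.3 ± 0.79 CPM against 17.1 ± 1.24 in 482N1 and 32.9 ± 2.05 in B16F10-BrM.

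Of 27 nucleic acid sensing genes 20 were measured, and 14 were higher and 5 lower in E0771-BrM than in 482N1 (median 0.859). Against B16F10-BrM, 12 were higher and 5 lower in E0771-BrM (median 0.642), and 7 were higher and 8 lower in B16F10-BrM than in 482N1 (median -0.183). Cgas, the cytosolic DNA sensor, was low in 482N1 at 2 ± 0.324 CPM, against 24.2 ± 2.65 in B16F10-BrM and 19.4 ± 1.79 CPM in E0771-BrM. Its adaptor Sting1 followed, at 10.8 ± 2.2, 35.3 ± 3.34 and 39.5 ± 8.54 CPM in the same order. In both genes the difference between B16F10-BrM and E0771-BrM was small (log2 fold changes of -0.32 ± 0.14 and 0.17 ± 0.13 for E0771-BrM against B16F10-BrM, adjusted p = 0.0404 and 0.247). Trim25, the ubiquitin ligase of RIG-I, was instead low in B16F10-BrM, at 15.7 ± 0.628 CPM against 66.5 ± 7.54 in 482N1 and 75.2 ± 3.05 in E0771-BrM. The double-stranded RNA receptor gene Tlr3 and the RNA-activated kinase gene Eif2ak2 were higher in E0771-BrM than in B16F10-BrM by 1.80 ± 0.21 and 1.43 ± 0.13 on the log2 scale. Rnaseh2b, a subunit of an RNA-DNA hybrid nuclease, was highest in B16F10-BrM, at 54.9 ± 2.54 CPM, and so was the adaptor gene Traf3, at 65.8 ± 1.79.

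Of 17 proteasome and peptide supply genes 15 were measured. Of these 12 were higher and 2 lower in E0771-BrM than in 482N1 (median 0.885), 9 higher and 2 lower than in B16F10-BrM (median 0.427), and 8 were higher and 4 lower in B16F10-BrM than in 482N1 (median 0.268). Erap1, which trims peptides in the endoplasmic reticulum for class I loading, had 3.76 ± 0.257 CPM in 482N1, 5 ± 0.471 in B16F10-BrM and 35.6 ± 3.29 CPM in E0771-BrM (log2 fold change 2.83 ± 0.16 between the latter lines, adjusted p = 7.07e-21). Psme2 and Psme1, subunits of the interferon-induced proteasome activator, were higher in E0771-BrM than in B16F10-BrM by 1.88 ± 0.11 and 1.28 ± 0.076 on the log2 scale. The list was not limited to interferon-induced genes. Its genes higher in E0771-BrM than in 482N1 include Psmb5 (1.97 ± 0.076), Psmb6 (0.94 ± 0.075), Psmb7 (0.69 ± 0.093), Canx (0.95 ± 0.069) and Calr (0.57 ± 0.069). The cytosolic aminopeptidase gene Npepps ran the other way, at 318 ± 31.8 CPM in 482N1, 121 ± 5.14 in B16F10-BrM and 69.3 ± 6.43 CPM in E0771-BrM. Of 14 class II control and checkpoint ligand genes 8 were measured. Of these 5 were higher and 0 lower in E0771-BrM than in B16F10-BrM (median 0.682), 2 higher and 4 lower than in 482N1 (median -0.399), and 1 was higher and 6 lower in B16F10-BrM than in 482N1 (median -0.888). Cd274, which encodes the T cell inhibitor PD-L1, had 2.98 ± 0.854 CPM in 482N1, 13.5 ± 1.45 in B16F10-BrM and 29.7 ± 1.65 CPM in E0771-BrM. Cd47, the signal that holds back phagocytes, was highest in 482N1, at 192 ± 15.3 CPM against 35.5 ± 4.39 in B16F10-BrM and 81.5 ± 4.51 CPM in E0771-BrM. Pvr, the poliovirus receptor and a ligand of T cell and natural killer cell receptors, was highest in E0771-BrM, at 104 ± 9.15 CPM against 62.5 ± 6.8 in 482N1 and 28.2 ± 3.5 in B16F10-BrM.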

How the data were processed

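Poly(A)-selected, dUTP-stranded RNA-seq libraries of 3 cell lines, 3 each, were measured, per the labels' protocols. The authors deposited whole-number counts per gene symbol, not normalized. The submitters' processing notes name FastQC, TopHat2 2.0.10, Bowtie 1.0.0, SAMtools 0.1.19, Cufflinks 2.2.1 and build GRCm39. How the counts were made, with which annotation and with what use of strand, is not given in the sources used here. Total counts of 7332390 to 9293348 per library set the precision of low genes.

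Counts were filtered with edgeR 4.0.16 (filterByExpr, 11037 of 11046 genes kept), scaled by TMM and fitted in R 4.3.3 with the robust quasi-likelihood model, 1 coefficient per line over 9 libraries. P-values were 2-sided and adjusted by Benjamini-Hochberg within each comparison over all genes, with a threshold of 0.05. The SE of a log2 fold change was taken from its F statistic. Folds without "log2" are ratios of mean CPM, and group values are mean ± SD (n = 3). A line with no count got a floor of 3 counts over the group, and one with 1 to 3 counts an exact 95% counting interval. Alternatives were RLE and upper-quartile scaling, removal of ribosomal RNA genes, other filters, DESeq2 1.42.0, limma-voom (limma 3.58.1), a test against a 2-fold change, only the lines compared, the library letter as a block, only library B of 482N1 and E0771-BrM, and each library left out. Members and lists were chosen with earlier results of these data known. Named members are the key genes of each role, those with the largest changes, and those that run against their group. 1 member is in the counts but is otherwise not reported here, and the figures leave it out.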

Additional observations from a re-analysis of the deposited data

How the results depend on the processing

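Of 165 results (55 members in 3 comparisons), 147 passed. Of these, 131 passed in every alternative that tested against no change, and 94 also in the test against a 2-fold change (glmTreat). Of the 18 that did not pass, 6 did so in some alternative. The result that reversed was B2m between E0771-BrM and B16F10-BrM, at -0.0084 on the log2 scale with only library B of 482N1 and E0771-BrM. The test against a 2-fold change called 3477 genes for B16F10-BrM against 482N1, 3342 for E0771-BrM against 482N1 and 2905 for E0771-BrM against B16F10-BrM, where 8592, 8622 and 8131 were called against no change. By that stricter test, 11 members were higher and 16 lower in B16F10-BrM than in 482N1, 27 higher and 6 lower in E0771-BrM than in 482N1, and 33 higher and 3 lower than in B16F10-BrM. Members highest in a line by the same test numbered 3 for 482N1, 0 for B16F10-BrM and 24 for E0771-BrM, and those lowest in a line 10 for 482N1, 12 for B16F10-BrM and 2 for E0771-BrM. Shares of all genes by direction or by line are not given for this test, so these counts cannot be set against them. The 0 members highest in B16F10-BrM under glmTreat compare with 3 by the quasi-likelihood test against no change and 3 by DESeq2. The cause of these changes other than the stricter threshold was not tested. With the library letter as a replicate block, 8595, 8623 and 8162 genes were called in the 3 comparisons and 34 members were highest in E0771-BrM. Over all genes, libraries of the same letter showed little shared deviation from their line means (correlations of -0.00992 to 0.0898), so the letters were not taken to pair the samples, although Dct, Tyrp1 and Pmel were higher in libraries A and C than in B in both 482N1 and E0771-BrM. The other scalings moved the median of all genes by at most 0.0599 on the log2 scale. Depth limits the genes with few counts, such as H2-T23, Ifit1 in 482N1 and the genes at 0 in a line.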
